A study of Macaca mulatta with 24 samples.

Results

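The molecular clock was examined through 10 of its genes in the core of the nucleus accumbens (NAcc) of rhesus macaques that had or had not drunk ethanol for 12 months. The genes were CLOCK, ARNTL, PER1, PER2, PER3, CRY1, CRY2, NR1D1, NR1D2 and DBP, taken by symbol from a table of 17208 rows, and all 10 were found in it. The 24 animals were unrelated adult male Macaca mulatta of 4 cohorts (4, 5, 7a and 7b), each giving 1 dissected sample of the NAcc core for poly(A) RNA-Seq. The 8 controls received water on both spouts, with a caloric match of maltose dextrin, and shared the room and the procedures of the drinkers of their cohort. The 8 LD* animals were labelled LD, and the study counts light and binge drinkers there, with intakes of 0.47 to 2.07 g/kg. The 8 HD* animals combined 4 labelled HD (heavy, 2.74 to 3.09 g/kg) and 4 labelled VHD (very heavy, 3.09 to 3.78 g/kg). All animals drank at operant panels in daily sessions of 22 h under 11 h of light and 13 h of dark, and tissue was taken at the end of the open-access period without imposed abstinence. The clock time at which each animal's tissue was taken is not given in the sources used here, so the values below are 1 reading per animal at an unstated phase. Drinking was voluntary, so intake was not assigned to the animals.

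In the clock, the CLOCK and ARNTL (BMAL1) proteins pair and switch on genes that carry E-boxes, among them the PER and CRY genes, whose products return to the nucleus and block the pair. A second loop runs through the nuclear receptors NR1D1 and NR1D2 (REV-ERBα and REV-ERBβ), which repress ARNTL, and the output factor DBP is driven by the E-box arm and acts on D-box genes. In tissues sampled around the day, ARNTL and the E-box genes are known to peak at nearly opposite times, and in the striatum the clock genes have been tied to dopamine signalling and reward.

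The values were TPM (transcripts counted relative to gene length and scaled to a fixed total per sample), so levels can be compared between genes, but the depth of each library cannot be read from them. The 10 markers of striatal projection neurons, the main cell of this tissue, were all present, with a summed level of 739 to 11202 TPM and a median of 6992 TPM. Their sums fell into 2 ranges with no animal between 5944 and 8040 TPM, and each range held 12 animals, 4 controls and 4 LD animals in each, the 4 VHD animals in the lower and the 4 HD animals in the upper. In the control at 739 TPM (Control 6), the dopamine receptor gene DRD1 stood at 8.14 TPM against a range of 53.4 TPM and above elsewhere. The 5 markers of cortical projection neurons, which do not belong to the striatum, summed to a median of 7.55 TPM. They reached 872 TPM in LD 4, 414 TPM in Control 2, 248 TPM in LD 2 and 243 TPM in HD 4. Control 7 (155 TPM), LD 6 (150 TPM) and HD 2 (106 TPM) were also high, and the other animals had at most 39.3 TPM. A set of 5 animals stood apart on the first principal component of the 9197 genes averaging at least 10 TPM. They were VHD 3, VHD 4, Control 6, Control 8 and LD 5, numbered within groups in accession order. Results that rest on these animals are given with and without them. In bulk tissue, fewer cells of a type and less RNA per cell cannot be told apart.

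All 10 genes were expressed above 1 TPM, the level at which 13637 genes were kept for testing. DBP was the most abundant, at a mean of 163 TPM (lowest 94.0, median 159.8, highest 229.7 over 24 animals), and CRY2, a repressor of the CLOCK and ARNTL pair, followed at 111 TPM. NR1D1 averaged 64.9 TPM and PER1 35.1 TPM. NR1D2 at 31.9 TPM and ARNTL at 30.2 TPM did not differ beyond their spread (higher NR1D2 in 15 of 24 animals, permutation of signs, two-sided p = 0.212). PER3 averaged 24.7 TPM, PER2 12.7 TPM and CRY1 11.9 TPM, and the last pair did not differ beyond their spread either (higher PER2 in 15 of 24 animals, permutation p = 0.728). CLOCK was the least abundant at 8.76 TPM, so the mRNA of the pair that drives the loop was uneven, with CLOCK below ARNTL. NPAS2, the CLOCK paralogue that can take its place beside ARNTL in the forebrain, stood above both in each group, with means of 69.9 TPM in controls, 75.7 TPM in LD* and 71.4 TPM in HD* animals.

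CRY1 was the steadiest member, with a coefficient of variation of 15.2% over the 24 animals, which lay at the 15.7th percentile of the tested genes. PER2 was the most variable, at 32.7% and the 75.1st percentile, and its highest value was 4.28 times its lowest. NR1D1 followed at 30.1%, with a highest value 3.76 times the lowest. The other members lay between 21.6% (PER1) and 26.9% (PER3).

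**Figure D1:**
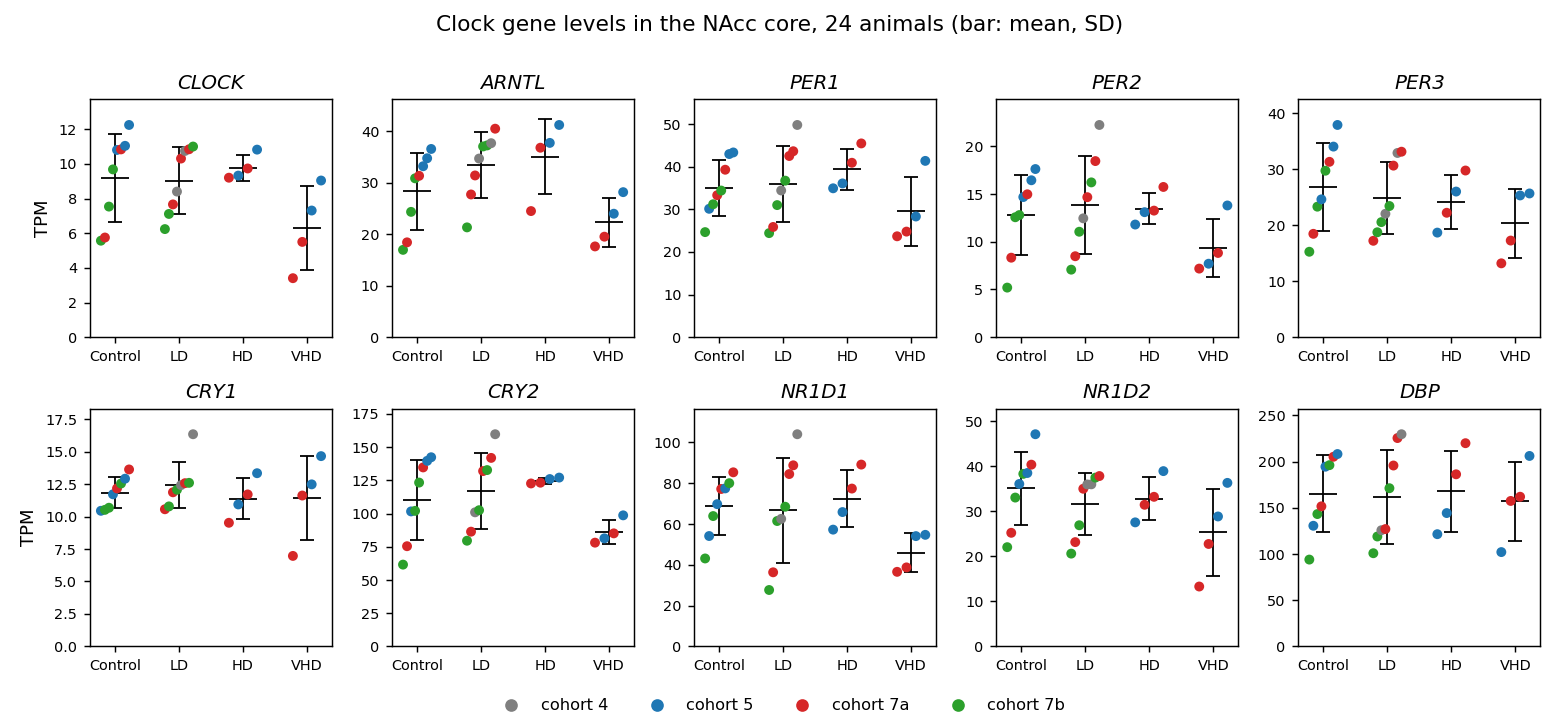
TPM (y axis, from 0) of the 10 clock genes in each animal by labelled group (x axis), coloured by cohort, with the mean and SD as black bars. Controls and LD animals cover wide and overlapping ranges for all 10 genes, while the 4 HD animals sit close together for CRY2 (122.6 to 127.1 TPM) and above the 4 VHD animals (78.1 to 98.7 TPM).

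Whether heavy drinking goes with another level of clock gene expression was addressed by setting HD* animals against controls. None of the 10 genes passed the test. In the positive arm, CLOCK ran from 5.57 TPM through a median of 10.2 to 12.2 TPM in controls and from 3.41 through 9.12 to 10.8 TPM in HD* animals, and ARNTL from 17.0 through 31.1 to 36.6 TPM and from 17.7 through 26.4 to 41.3 TPM. The groups overlapped over most of their ranges for both. The HD* minus control difference, on the log2(TPM + 1) scale used for all differences here, was -0.19 (SE 0.19) for CLOCK and 0.01 (SE 0.19) for ARNTL.

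Among the repressors, PER1, which also responds quickly to synaptic activity, ran from 24.7 through 33.9 to 43.3 TPM in controls and from 23.7 through 35.5 to 45.5 TPM in HD* animals, a difference of -0.03 (SE 0.16). PER2 differed by -0.12 (SE 0.23), PER3 by -0.24 (SE 0.19), CRY1 by -0.07 (SE 0.12) and CRY2 by -0.04 (SE 0.18). In the second loop, NR1D1 ran from 43.1 through 73.5 to 85.3 TPM in controls and from 36.6 through 56.0 to 89.1 TPM in HD* animals (-0.24, SE 0.23). NR1D2 had the lowest estimate of the 10, -0.29 (SE 0.19), with controls from 22.0 through 37.2 to 47.1 TPM and HD* animals from 13.3 through 30.1 to 38.9 TPM. DBP, the output factor, differed by -0.02 (SE 0.19).

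By limma, 0 of 10 members and 0 of 13637 genes (0.0%) passed an adjusted p under 0.05 in HD* against controls. At an unadjusted p under 0.05, 0 of 10 members passed beside 775 genes (5.68%), of which 721 were lower in HD*. The study itself used DESeq2 on read counts and reported many genes at an FDR under 0.05 in this contrast, and a few in HD* against LD*. The 0 genes here thus belong to this fit on TPM, which recovered none of them. The members' median difference was -0.10 beside -0.12 over all tested genes, a shift of the whole table that rescaling by a trimmed mean of M-values (TMM) brought to -0.01 (then 263 genes higher and 235 lower). Under that rescaling PER1, CRY1, CRY2 and DBP took the opposite sign, so no direction is given for them. Of the 23 other clock genes that were tested, 17 had estimates under 0, and only BHLHE41 (DEC2, an E-box repressor) passed the unadjusted threshold, at -0.27 (SE 0.13, adjusted p = 0.706). Within cohort 5 the members' differences ran from -0.48 (PER2) to 0.12 (CRY1), and within cohort 7a from -0.53 (NR1D1) to 0.03 (DBP). CRY1 was above the mean of its cohort's controls in 3 of 4 HD* animals of cohort 5 and below it in 4 of 4 of cohort 7a. The test of that contrast gave -0.49 (SE 0.29, unadjusted p = 0.121), the lowest of the 10 members, and PER2 gave the highest, 0.43 (SE 0.43). In this interaction 0 members passed either threshold, beside 0 genes (0.0%) at an adjusted p under 0.05 and 294 genes (2.16%) unadjusted.

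Whether lower intake goes with another level was addressed with the same 8 controls. No member passed the test between LD* animals and controls. ARNTL had the largest difference, 0.26 (SE 0.19), with LD* animals from 21.4 through 35.9 to 40.5 TPM, and the estimate was 0.43 within cohort 7a, 0.39 within cohort 7b and 0.14 without the 5 animals that stood apart. The groups overlapped, and ARNTL had an unadjusted p of 0.179. The other positive-arm gene, CLOCK, ran from 6.24 through 9.36 to 11.0 TPM in LD* animals (unadjusted p = 0.999). Among the repressors, PER1 differed by 0.03 (SE 0.16), PER2 by 0.10 (SE 0.23), PER3 by -0.09 (SE 0.19), CRY1 by 0.06 (SE 0.12) and CRY2 by 0.10 (SE 0.18). NR1D1 had the widest LD* range of the members relative to its mean, from 27.7 through 65.5 to 104.0 TPM, and differed by -0.13 (SE 0.23). NR1D2 differed by -0.14 (SE 0.19) and DBP by -0.05 (SE 0.19). By limma, 0 of 10 members passed an adjusted p under 0.05, like 0 of all genes (0.0%), and 0 members passed the unadjusted one, beside 387 genes (2.84%). Of the other clock genes RORA, an activator of ARNTL, had the smallest p here, at -0.26 (SE 0.16, unadjusted p = 0.119).

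Between HD* and LD* animals the members' differences ran from -0.25 (ARNTL, SE 0.19) to 0.03 (DBP, SE 0.19), with a median of -0.14 beside -0.08 over all genes. No member passed an adjusted p under 0.05 by limma (0.0% of all genes did) and none an unadjusted one, which 147 genes (1.08%) passed. FBXW11, part of a ubiquitin ligase that acts on PER proteins, had the smallest p of the other clock genes, at -0.23 (SE 0.15, unadjusted p = 0.157). The contrast of LD* against controls between cohorts 7a and 7b ran from -0.18 (PER3, SE 0.46) to 0.20 (CRY1, SE 0.24), and again 0 members passed either threshold, beside 0.0% of genes adjusted and 312 genes (2.29%) unadjusted. RORB and NONO had the smallest p of the other clock genes in the cohort contrasts of HD* (-0.58, SE 0.38, unadjusted p = 0.150) and LD* (-0.52, SE 0.31, unadjusted p = 0.120).

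**Figure D2:**
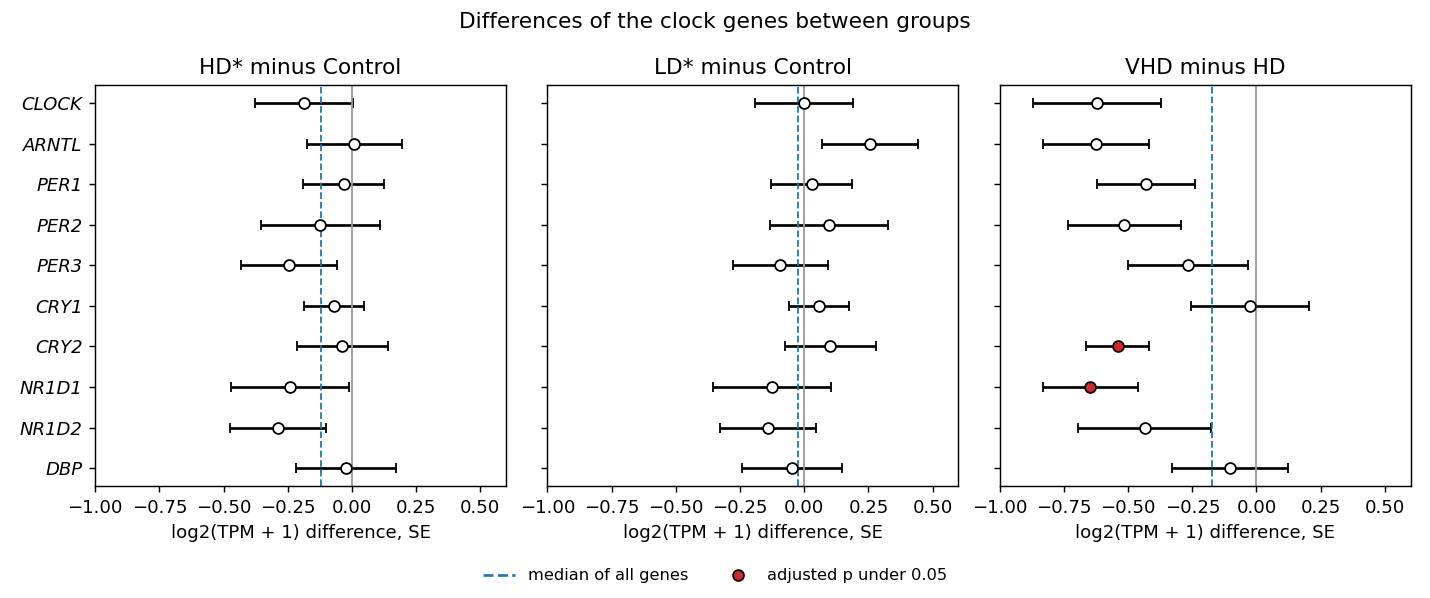
Differences of the 10 clock genes in log2(TPM + 1) with their SE (x axis) in HD* against controls, LD* against controls and VHD against HD animals. The dashed line is the median of all tested genes, and filled points mark an adjusted p under 0.05, which only CRY2 (-0.54) and NR1D1 (-0.65) reached, in VHD against HD.

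The HD* group joins heavy and very heavy drinkers, and the comparison of the 4 VHD with the 4 HD animals addressed whether they differ. CRY2 and NR1D1 were lower in VHD animals. CRY2 stood at 126.0, 127.1, 122.6 and 123.2 TPM in HD animals 1 to 4 and at 98.7, 81.3, 78.1 and 85.1 TPM in VHD animals 1 to 4. All 4 VHD animals lay below all 4 HD animals. The difference was -0.54 (SE 0.12, adjusted p = 0.0160 by limma).

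NR1D1, the repressor of ARNTL, stood at 65.9, 57.3, 77.4 and 89.1 TPM in HD animals and at 54.7, 54.1, 38.7 and 36.6 TPM in VHD animals. The groups did not overlap, though in cohort 5 (animals 1 and 2 of each group) the gap was narrow, and in cohort 7a (animals 3 and 4) it was wide. The difference was -0.65 (SE 0.19, adjusted p = 0.0382 by limma). The NR1D1 gene overlaps the thyroid hormone receptor gene THRA in the RefSeq annotation. THRA was at 571.0, 644.3, 712.9 and 588.1 TPM in HD and 754.5, 555.3, 646.5 and 616.8 TPM in VHD animals, with no gap between the groups. The submitters' record describes libraries without strand and the study's methods libraries with strand, so reads of the overlap may not have been told apart.

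CLOCK, the other member without overlap, stood at 10.8, 9.33, 9.74 and 9.20 TPM in HD and at 7.31, 9.04, 5.50 and 3.41 TPM in VHD animals, and its difference of -0.62 (SE 0.25) did not pass (adjusted p = 0.111 by limma). Its partner ARNTL stood at 37.8, 41.3, 36.8 and 24.5 TPM in HD and at 24.01, 28.2, 19.5 and 17.7 TPM in VHD animals. The groups overlapped through HD 4 alone, and the difference of -0.63 (SE 0.20) did not pass either (adjusted p = 0.0595 by limma). So the estimates for ARNTL and for its repressor NR1D1 both lay under 0.

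PER1 stood at 36.1, 34.9, 40.9 and 45.5 TPM in HD and at 41.4, 28.3, 24.8 and 23.7 TPM in VHD animals, so that VHD 1 was within the HD range and the other VHD animals below it. PER2 had the same pattern, with 11.8, 13.1, 13.3 and 15.7 TPM in HD and 13.8, 7.70, 8.82 and 7.19 TPM in VHD animals. Their differences were -0.43 (SE 0.19, adjusted p = 0.141) for PER1 and -0.51 (SE 0.22, adjusted p = 0.128) for PER2 by limma. The estimates for PER3 (-0.27, SE 0.23) and NR1D2 (-0.44, SE 0.26) passed neither threshold, nor did those for CRY1 (-0.03, SE 0.23) and DBP (-0.10, SE 0.23). CRY1 ran from 9.52 to 13.3 TPM in HD and from 6.97 to 14.6 TPM in VHD animals, and DBP from 121.5 to 220.0 TPM and from 102.2 to 206.2 TPM.

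All 10 estimates were under 0, with a median of -0.47, in a comparison in which the median of all genes was -0.17. Of the 10 members, 2 passed an adjusted p under 0.05, beside 1997 of 13637 genes (14.6%), or 11.4% counting genes lower in VHD alone, while 441 of the 1997 were higher in VHD. Under TMM rescaling, which brought the median of all genes to 0.01, 2581 genes passed and 1170 of them were higher in VHD. Of the 10 members, 6 passed an unadjusted p under 0.05, beside 32.7% of all genes. For 3 of 10 members all VHD animals lay below all HD animals, beside 17.9% of all genes. The exact permutation test over the 8 animals gave p = 0.0286 (two-sided) for CRY2, NR1D1 and CLOCK, the smallest that 4 against 4 allows. These are the 3 members without overlap, and a lack of overlap alone fixes this p. It therefore adds nothing to that count, and the 17.9% of all genes with this separation would have the same p.

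The striatal projection neuron markers moved with this comparison. Their 10 genes summed to 8675 to 10250 TPM in HD and to 3209 to 5944 TPM in VHD animals, with none at 0. The 7 astrocyte markers ran the other way, from 2154 to 3820 TPM in HD and from 4899 to 7775 TPM in VHD animals, and the 7 microglial markers from 275 to 362 TPM and from 362 to 632 TPM. The 8 oligodendrocyte markers overlapped (2433 to 4179 and 2388 to 5048 TPM). With an oligodendrocyte and a neuron score in the fit, CRY2 was at 0.07 (SE 0.77) and NR1D1 at -0.33 (SE 1.15), 0 genes passed, and the scores and the groups cannot be told apart in 8 animals.

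Both calls were lost under TMM rescaling (adjusted p = 0.146 for CRY2 and 0.0632 for NR1D1 by limma), with all 24 animals in 4 groups sharing 1 spread (0.105 and 0.134), and without VHD 3 and VHD 4 (0.0527 and 0.206), which are among the animals that stood apart. The differences of CRY2 and NR1D1 were -0.34 and -0.44 under TMM rescaling and -0.47 and -0.39 without these 2 animals, while in the 4-group fit they were as before (-0.54 and -0.65) and the SE rose to 0.23 and 0.30. When single animals were left out, no member passed without HD 2, HD 3 or VHD 3, CRY2 alone passed without HD 1 or VHD 4, ARNTL alone without HD 4, and 4 members passed without VHD 1 (with PER1 and PER2) or VHD 2 (with CLOCK and ARNTL).

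Of the 23 other clock genes tested, 6 passed in VHD against HD, and all 6 were lower in VHD, beside 14.6% of all genes called and 11.4% called and lower. They were USP2 (-1.03, SE 0.19), a deubiquitinase of clock proteins, BHLHE40 (DEC1, -1.02, SE 0.21), an E-box repressor, HLF (-0.92, SE 0.19), a relative of DBP, NFIL3 (-0.91, SE 0.26), which opposes DBP at D-boxes, BTRC (-0.86, SE 0.22), a ubiquitin ligase subunit that acts on PER proteins, and CSNK1D (-0.61, SE 0.14), a kinase of PER proteins. Their adjusted p ran from 0.00846 to 0.0345 by limma. As many passed under TMM rescaling, but 0 with 4 groups of all animals (the lowest of the 6 adjusted p was 0.0555, for CSNK1D) or with marker scores, 1 (USP2, adjusted p = 0.0429) without the 5 animals, and 2 (without VHD 3) to 14 (without VHD 2) with 1 animal left out. BHLHE40 averaged 92.0 ± 13.2 TPM in HD and 46.2 ± 15.7 TPM in VHD animals (SD, n = 4), and HLF 79.2 ± 3.92 and 42.9 ± 13.5 TPM. A further 5 genes passed an unadjusted p under 0.05 alone (an unadjusted p under 0.05 was reached by 32.7% of all genes) and also had estimates under 0, namely NPAS2 (-0.43), CSNK1E (-0.34), FBXW11 (-0.56), GSK3B (-0.59) and NONO (-0.49). For 7 of the 23 all VHD animals lay below all HD animals, beside 17.9% of all genes, and the median of the 23 was -0.49 beside -0.17 over all genes.

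Across the 16 drinkers, expression was also set against each animal's intake. ARNTL had the steepest estimate of the members, -0.21 per g/kg (SE 0.09, unadjusted p = 0.0361, adjusted p = 0.512 by limma), which did not pass. Of the 10 estimates, 9 were under 0, with a median of -0.13 beside -0.07 over all genes, and DBP was at 0.01 (SE 0.11). CLOCK was at -0.16 (SE 0.10), NR1D1 at -0.16 (SE 0.14), PER2 at -0.18 (SE 0.12), NR1D2 at -0.14 (SE 0.10), CRY2 at -0.12 (SE 0.09) and CRY1 at -0.11 (SE 0.07) per g/kg. PER3 was at -0.09 (SE 0.10) and PER1 at -0.07 (SE 0.09). Of the members, 1 passed the unadjusted threshold, beside 907 genes (6.65%), and no member and no gene (0.0%) the adjusted one. With cohort as a covariate ARNTL was at -0.52 (SE 0.15) and CLOCK at -0.50 (SE 0.17) per g/kg, each with an adjusted p of 0.134 by limma, in a fit where the median of all genes was -0.18 and 4014 genes passed the unadjusted threshold. FBXW11 was the only other clock gene with an unadjusted p under 0.05, at -0.19 per g/kg (SE 0.09). Intake, drinking group and cohort overlap, since cohort 4 gave only LD* animals and cohort 5 no LD* animals.

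Cohort itself was tested with an F test of its 3 terms beside the 3 groups. CLOCK averaged 10.1 ± 1.63 TPM in the 7 animals of cohort 5 and 7.86 ± 2.08 TPM in the 6 of cohort 7b (SD), and ARNTL 33.7 ± 5.89 and 28.0 ± 8.44 TPM. CLOCK (F = 2.64, unadjusted p = 0.0749) and ARNTL (F = 2.85, unadjusted p = 0.0606) had the smallest p of the members, and 0 of 10 passed either threshold by limma, beside 0.0% of genes adjusted and 1140 genes (8.36%) unadjusted. Of the other clock genes, RORA (F = 3.25), an activator of ARNTL, was among those that passed the unadjusted one. RORA averaged 4.03 TPM in cohort 5 and 2.78 TPM in cohort 7a.

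How the 10 genes vary together from animal to animal was described by Pearson's r of log2(TPM + 1) over the 45 pairs. Over 24 animals 44 of 45 pairs had r above 0 and 35 had r of at least 0.5, with a median of 0.67, while 64.3% of all pairs of tested genes had r above 0 and 23.4% at least 0.5. The animals share library composition, so this is a description of these samples and not of a daily rhythm. Without the 5 animals that stood apart, 35 pairs were above 0 and 18 at least 0.5, with a median of 0.30, beside 56.9% and 14.1% of all pairs. Under TMM rescaling 36 pairs were above 0 and 24 at least 0.5, with a median of 0.55, beside 49.8% and 12.8% of all pairs. Within the lower range of the neuron markers 30 pairs reached 0.5, and within the upper range 16. The share of all pairs was not computed within the ranges.

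PER1, PER2, CRY2, NR1D1 and DBP, genes of the E-box arm, were described as a set after their values were seen. Over 24 animals their pairs ran from 0.62 (NR1D1 and DBP) to 0.93 (PER2 and CRY2), and PER3 had r of 0.80 with PER1, 0.79 with PER2 and 0.71 with NR1D1, above those of DBP with the same genes. Without the 5 animals the set ran from 0.72 to 0.86, and PER3 was at 0.66, 0.59 and 0.67 with these 3. The set did not hold in the lower range of the neuron markers, where NR1D1 and DBP had r = 0.08, CRY2 and DBP 0.29, and CRY2 and NR1D1 0.34. Its highest r there was 0.91 (PER2 and CRY2). In the upper range it ran from 0.41 (CRY2 and DBP) to 0.88 (PER2 and CRY2). After the marker scores were fitted out it ran from 0.29 (CRY2 and DBP) to 0.85 (PER1 and NR1D1). PER1 and NR1D1 had r = 0.88 (Spearman's rho = 0.84, permutation p = 1e-05 for each, the smallest that 100000 permutations can give, adjusted p = 5e-05 over 45 pairs), 0.84 without the 2 animals farthest from the PER1 median, and 0.70, 0.94 and 0.90 within cohorts 5, 7a and 7b. Of all genes, PER1 had the highest r with NR1D1 over 24 animals, and it was in place 15 without the 5 animals. Their r was 0.75 in the lower and 0.77 in the upper range of the neuron markers, and 0.83 without the 5 animals. PER1 and PER2 had r = 0.89 (rho = 0.89, permutation p = 1e-05), and 0.85 without the 5 animals. PER1 and DBP had r = 0.76 (rho = 0.78, permutation p = 5e-05 and 4e-05), 0.86 without the 5 animals, and 0.41 and 0.74 in the lower and upper range.

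CRY2 was the only member with no overlap between the ranges of the neuron markers, at 61.6 to 102.5 TPM in the lower and 122.6 to 159.7 TPM in the upper one, a separation that 2.04% of all genes showed in that direction. It was singled out after its values were seen. Within the ranges its r with the summed markers was 0.69 and 0.33 over 12 animals each, and its r with PER2 0.91 and 0.88. PER2 was close to CRY2, with r of 0.57 and 0.35 with the summed markers within the ranges, and DBP had 0.61 and 0.06. NR1D1 had r of -0.15 and 0.01 with the summed markers within the ranges, PER1 0.19 and 0.41, and CRY1 -0.03 and -0.22.

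**Figure D3:**
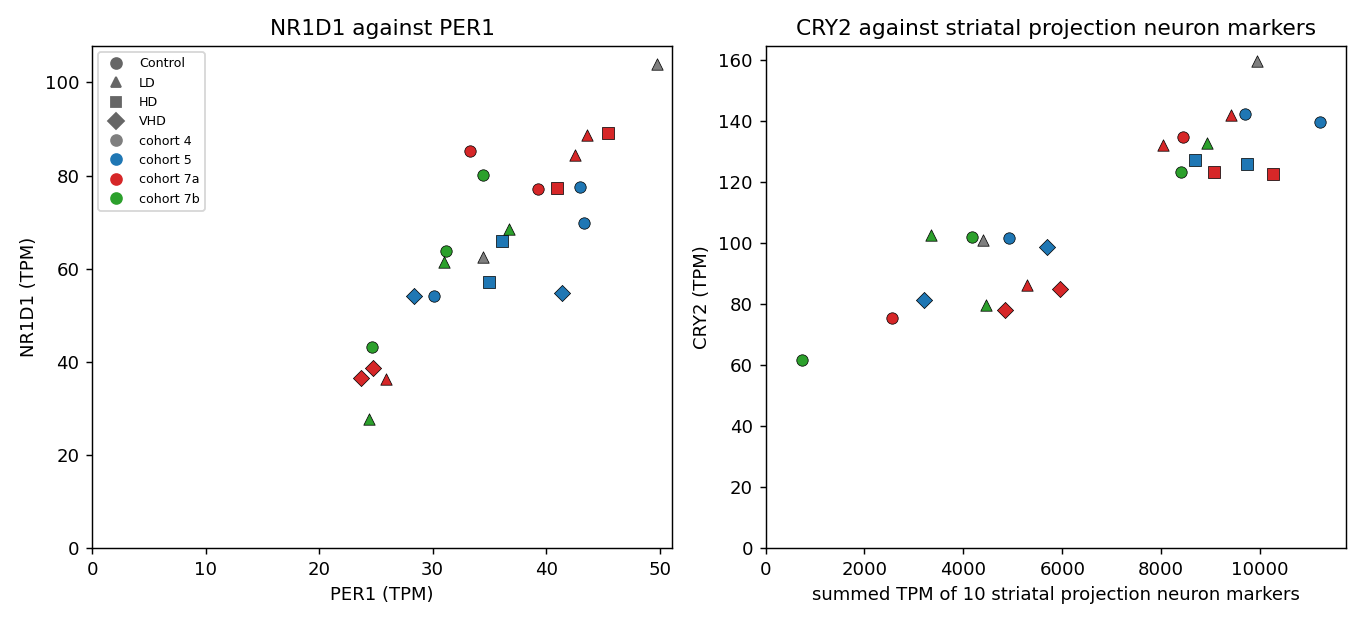
Left, NR1D1 against PER1 in TPM for the 24 animals, where animals high in one were high in the other (r = 0.88 on the log2 scale). Right, CRY2 in TPM against the summed TPM of 10 striatal projection neuron markers, where the 4 VHD animals lie in the lower range (up to 5944 TPM) and the 4 HD animals in the upper (from 8675 TPM). Shapes mark groups and colours cohorts.

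CLOCK, NR1D2 and PER3 were described as a second set, also after their values were seen. In it CLOCK and PER3 had the lowest r, 0.79 over 24 animals and 0.50 without the 5. CLOCK and its partner ARNTL, which is outside the set, had r = 0.80, and 0.39 without the 5 animals. PER3 was about as close to PER1 (r = 0.80) and PER2 (0.79) as to CLOCK over 24 animals. CLOCK and NR1D2 had r = 0.93 (rho = 0.85, permutation p = 1e-05), 0.87 without the 2 farthest animals and 0.78 without the 5 animals that stood apart. Within cohorts 5, 7a and 7b their r was 0.81, 0.96 and 0.92. Many other genes had a higher r with each, since NR1D2 was in place 177 of all genes for CLOCK and CLOCK in place 84 for NR1D2. Without the 5 animals these places were 297 and 346. Over 24 animals PER3 was in place 2353 for CLOCK and in place 729 for NR1D2, while NR1D2 was in place 7 for PER3. PER3 and NR1D2 had r = 0.88 (rho = 0.83, permutation p = 1e-05), and 0.77 without the 5 animals. The paralogues NR1D1 and NR1D2 were less alike, with r = 0.69 (rho = 0.46), and 0.49 without the 5 animals.

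ARNTL, which peaks opposite to the E-box genes in tissue sampled around the day, did not run opposite to them over the 24 animals. Its r was 0.58 with PER1, 0.72 with PER2, 0.50 with NR1D1, 0.77 with CRY2 and 0.18 with DBP over 24 animals. Without the 5 animals the same pairs were at 0.10, 0.26, 0.18, 0.42 and -0.19. Within the lower range of the neuron markers they were at 0.43, 0.69, 0.32, 0.76 and -0.26. In the upper range they were at -0.31, -0.04, -0.44, 0.21 and -0.64, so the sign of ARNTL with PER1, PER2, NR1D1 and DBP is not settled here. After an oligodendrocyte and a neuron score were fitted out, ARNTL and DBP had r = -0.52, the only pair at or under -0.5 in that setting.

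CRY1 varied apart from the first set over the 24 animals. Its r was 0.54 with CLOCK (permutation p = 0.00808, rho = 0.35 with p = 0.0927) and 0.53 with NR1D2 (permutation p = 0.0121, rho = 0.28 with p = 0.191) over 24 animals, and 0.08 and -0.03 without the 5. Its r with DBP was -0.22 (rho = -0.24, permutation p = 0.308), the lowest of the 45 pairs, and -0.52 without the 5 animals. With PER1, PER2 and CRY2 it had r of 0.17, 0.20 and 0.07 over 24 animals, -0.40, -0.35 and -0.45 without the 5, and -0.19, -0.15 and -0.29 under TMM rescaling. Within the lower range of the neuron markers these were 0.59, 0.50 and 0.36, and within the upper range -0.17, 0.01 and 0.21. The sign of CRY1 with these genes is therefore not settled here. In the lower and upper range its r was 0.54 and -0.29 with NR1D1, -0.21 and -0.21 with DBP, 0.84 and -0.01 with CLOCK, and 0.88 and -0.19 with NR1D2. In cohort 5 (7 animals) r with NR1D1 was -0.86, in cohort 7a (9 animals) 0.37 and in cohort 7b (6 animals) 0.38, so the cohorts did not share a sign.

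**Figure D4:**
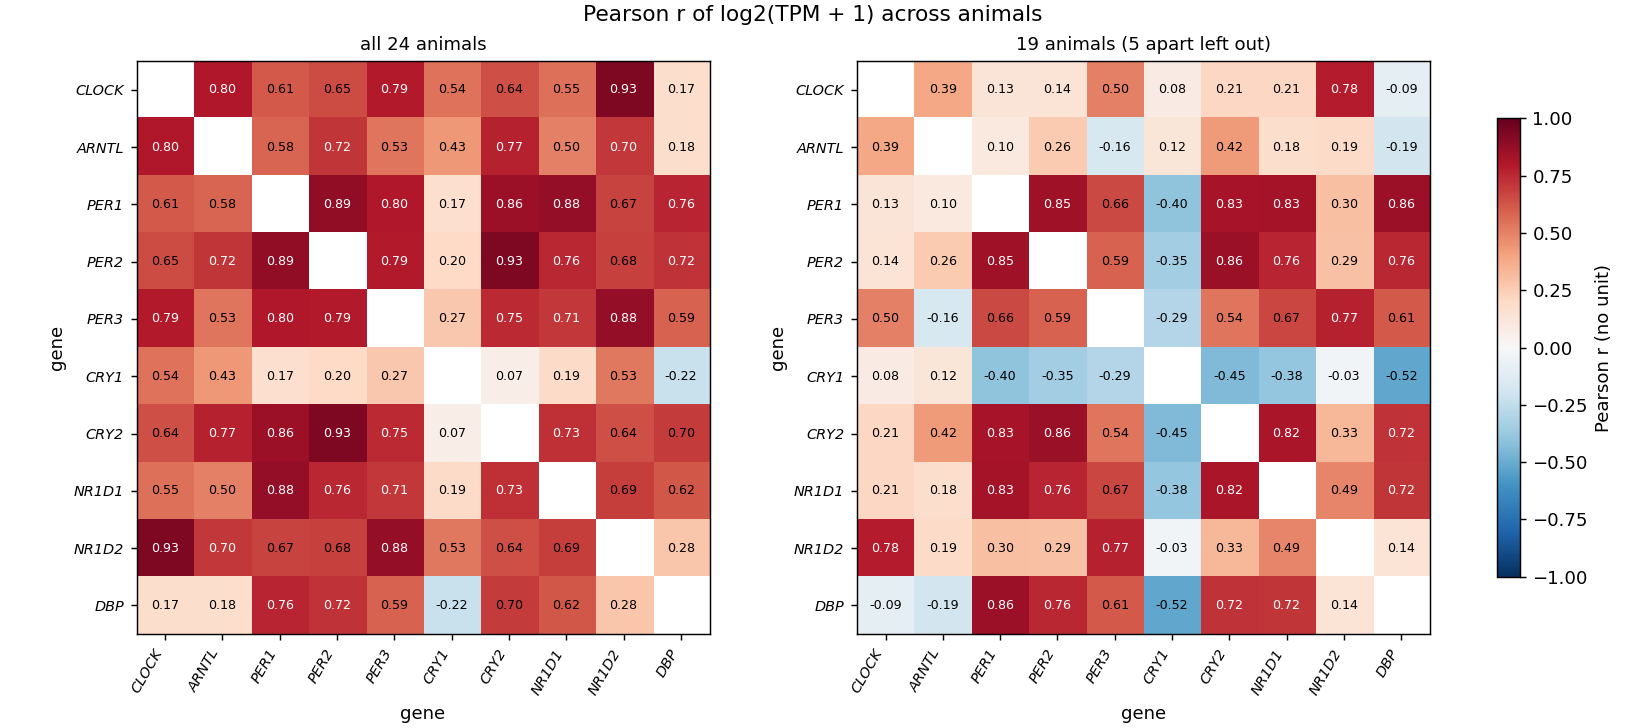
Pearson's r of log2(TPM + 1) for each pair of the 10 clock genes, over all 24 animals (left) and without the 5 animals that stood apart on the first principal component (right), from -1 in blue to 1 in red. PER1, PER2, CRY2, NR1D1 and DBP have r of 0.72 to 0.86 with each other on the right, while CRY1 has values under 0 with 7 of the 9 other genes. Within the lower range of the neuron markers, which is not drawn, the same 5 genes had r from 0.08 to 0.91.

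For each member, the 3 genes outside the set with the highest r over 24 animals were listed, keeping genes whose mean reached 10 TPM. For PER1 they were BHLHE40 (r = 0.91), the E-box repressor named above, SEC14L1 (0.89) and PHLDA1 (0.89). For NR1D1 they were ALDH18A1 (0.82), H1F0 (0.81) and IRF2BPL (0.80), and for DBP MFSD3 (0.83), LMTK3 (0.82) and PRKCDBP (0.81). For CRY2 they were TLE4 (0.97), CELF4 (0.96) and FOXP1 (0.96), and for PER2 CACNA1E (0.92), NETO2 (0.91) and PELI1 (0.90). For CLOCK they included KIAA1430 (0.97) and MYO9A (0.97). For NR1D2 they were SP3 (0.96), ETNK1 (0.96) and FAM208A (0.96), and for PER3 PIAS2 (0.90), RSF1 (0.88) and CDKL2 (0.88). For ARNTL they were PPP3CB, HNRPLL and BAI3 (0.91 each), with NFIL3 in the fourth place (0.91), and for CRY1 PDHB (0.85), MAGEH1 (0.82) and COPS3 (0.80). Once the marker scores were fitted out, BHLHE40 stayed first for PER1 (0.85), BHLHE41 was the third for NR1D1 (0.82), and C1orf51 (CIART, a repressor of the CLOCK and ARNTL pair) was first for DBP (0.73). Without the 5 animals that stood apart these places were not kept. BHLHE40 was then in place 16 for PER1 (0.85), after SUDS3 (0.89), ARHGEF17 (0.88) and SH2D5 (0.87), the first 3 for NR1D1 were EDC4 (0.91), VPS33B (0.90) and DHX57 (0.89), and those for DBP were DUSP9 (0.88), MFSD3 (0.87) and TRIM11 (0.87).

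Because PER1 is also an early response gene, the members were set beside a score of 10 immediate early genes (FOS, EGR1, ARC and others) and 1 of 10 glucocorticoid-induced genes. With the immediate early score PER1 had r = 0.79 (rho = 0.82), PER2 0.81 (rho = 0.79) and CRY2 0.88 (rho = 0.87), while CRY1 had 0.04 (rho = 0.05). PER1 was thus not the member closest to it. With the glucocorticoid score PER1 had r = 0.20 (rho = 0.08) and CRY1 0.59 (rho = 0.27). CRY1 was not alone, since NR1D2 had 0.55 (rho = 0.35) and CLOCK 0.50 (rho = 0.20), while DBP had -0.33 (rho = -0.36). Without the 2 animals farthest from the median of the score these r were 0.80, 0.80, 0.87 and -0.10 for the immediate early genes. With the glucocorticoid score they were then 0.12 for PER1, 0.39 for CRY1, 0.46 for NR1D2, 0.42 for CLOCK and -0.33 for DBP. All are given as a description. These scores share library composition with the members, and its part in the values was not tested.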

How the data were processed

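RNA-Seq of the NAcc core of 24 macaques was analysed, 1 sample per animal, grouped by the labels for drinking category, cohort and intake. Per the submitters' processing notes, the tools were FastQC, STAR (2.5.2b), HTSeq (0.6.1p1) and DESeq2, and reads were placed on the MacaM assembly. The values deposited by the authors are TPM: the columns sum to 999998 to 1000000, although the table is called normalized counts. The record describes single-end reads without strand, the methods paired-end reads with strand. The depth per library is therefore unknown, and no counting interval is given.

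Genes averaging 1 TPM or more were fitted on log2(TPM + 1) with limma (3.58.1, R 4.3.3; empirical Bayes with a trend, Benjamini-Hochberg over all 13637 genes, threshold 0.05). This scale understates changes of low genes. The labels number no replicates, so animals were numbered in accession order. Correlations used 100000 permutations (Python 3.11.15, numpy 2.4.6, scipy 1.17.1). The fit was tested on simulated data, with genes drawn independently of one another and planted changes larger than the members' main differences. That test therefore does not show how often changes of the members' size would be found. All 10 members were named in every comparison, together with those of 25 other clock genes at an unadjusted p under 0.05 (or the smallest p) and the 3 genes most like each member. CIART was matched as C1orf51 through the RefSeq table (names only), and 23 of the 25 were tested. Some genes named by this rule are not reported here. A further 2 symbols, turned into dates, occur in 2 rows each. Members, lists and comparisons were chosen with earlier results of these data known. Alternatives covered the pseudocount, filter, scaling, weights, cohort, marker scores and each animal left out. The 5 animals that stood apart and the 2 ranges of neuron markers were defined after seeing the data. No sequences are shown.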

Additional observations from a re-analysis of the deposited data

Results flagged for a closer look

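Of 50 combinations of a member and a group (controls, LD*, HD*, HD and VHD) examined for a single animal far from the others, 1 stood out, where chance flags about 1 in 20 groups. CRY1 was at 16.3 TPM in LD 2, an animal of cohort 4, while the other 7 LD* animals ran from 10.6 to 12.6 TPM. Its PER1 was at 34.4 TPM and its DBP at 125.8 TPM. The other animal of cohort 4, LD 1, had the highest PER1 (49.8 TPM), PER2 (22.2 TPM), CRY2 (159.7 TPM), NR1D1 (104.0 TPM) and DBP (229.7 TPM) of all 24, with CRY1 at 12.4 TPM. No member passed the interaction test of its difference from controls between cohorts.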

How the results depend on the processing

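Under every alternative tried, 0 of 10 members passed an adjusted p under 0.05 in HD* against controls, LD* against controls, HD* against LD*, the intake slope, the cohort test and both cohort contrasts, which with these group sizes does not show that the levels were equal. In VHD against HD, 2 members passed, and 2 or 3 did with other pseudocounts, a minimum of 10 TPM or cohort as a covariate; 1 did with no filter, 7 with array weights, and 0 with TMM rescaling, median centring, marker scores as covariates, 4 groups of all animals in 1 fit or without the 5 animals apart, and 0 to 4 when 1 animal was left out. Over all genes 1997 passed there by limma, against 7613 with array weights, 606 without the 5 animals, 476 (without VHD 3) to 4651 (without VHD 2) with 1 animal left out, 0 with marker scores (124 unadjusted) and 0 with 4 groups (4608 unadjusted). Median centring gave 2744, 1572 of them higher in VHD. Of 45 pairs, 35 reached r of 0.5, against 24 under TMM rescaling and 18 without the 5 animals. In cohort 5 alone 21 did, and in the upper marker range 16. The depth is unknown, so counting error is part of the spread between animals. No paired analysis was possible because each animal gave 1 sample and the animals were unrelated. The cause of the changes listed next was not tested.

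In HD* against controls, TMM rescaling gave PER1 0.091, CRY1 0.046, CRY2 0.088 and DBP 0.10, and median centring gave PER1 0.11, PER2 0.020, CRY1 0.074, CRY2 0.10 and DBP 0.12. ARNTL was at -0.11 with marker scores, -0.078 with cohort as a covariate, -0.076 in cohorts 5 and 7a with cohort, -0.12 in cohort 5, -0.025 in cohort 7a and -0.010 without the 5 animals. PER1 was at 0.031 with array weights and 0.035 without the 5 animals, CRY1 at 0.12 in cohort 5 and 0.010 without the 5 animals, and DBP at 0.027 in cohort 7a. Leaving out 1 animal gave ARNTL -0.085 to 0.10, PER1 -0.10 to 0.037, CRY1 -0.12 to 0.019, CRY2 -0.15 to 0.023 and DBP -0.13 to 0.068.

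In LD* against controls, CLOCK was at -0.0054 with a pseudocount of 8, -0.049 with marker scores, -0.092 with array weights and -0.12 without the 5 animals. Marker scores gave PER1 -0.083, PER2 -0.080 and CRY2 -0.015, the fit without the 5 animals PER2 -0.051 and CRY2 -0.035, and array weights NR1D1 0.074 and DBP 0.00017. PER3 was at 0.0055 in cohorts 7a and 7b and 0.11 in cohort 7a, CRY1 at -0.023 and -0.13 there, and DBP at 0.010 in cohort 7a. Leaving out 1 animal gave CLOCK -0.084 to 0.064, PER1 -0.041 to 0.10, PER2 -0.057 to 0.21, CRY2 -0.0084 to 0.18, NR1D1 -0.23 to 0.035 and DBP -0.16 to 0.040.

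In VHD against HD, marker scores gave PER1 0.92, PER2 1.52, PER3 0.74, CRY2 0.072 and DBP 1.81, TMM rescaling CRY1 0.16 and DBP 0.10, median centring CRY1 0.22 and DBP 0.14, array weights DBP 0.058, and the fit without the 5 animals PER3 0.094 and CRY1 0.24. Leaving out 1 animal gave CRY1 -0.15 to 0.17 and DBP -0.25 to 0.086. In HD* against LD*, PER1 was at 0.026 with TMM rescaling, 0.045 with median centring, 0.018 without the 5 animals and up to 0.0091 with 1 animal left out, and DBP was at -0.17 with array weights, -0.051 with cohort as a covariate, -0.033 without the 5 animals and -0.062 to 0.12 with 1 animal left out. The intake slope of PER1 was 0.011 after median centring, that of CRY1 0.053 in HD* animals alone, and that of DBP -0.054 with array weights, -0.0068 with controls at 0, -0.052 in LD* animals alone and -0.056 to 0.073 with 1 animal left out. The LD* cohort contrast of PER3 ran from -0.55 to 0.18 with 1 animal left out. Without Control 8, 8 of 10 members took the opposite sign in that contrast (median 0.23, against -0.05), and CLOCK, ARNTL, PER3 and CRY2 did in the HD* cohort contrast (median of the 10 -0.25, against 0.07). Of the values recomputed for single members, 1212 kept the direction and the side of the threshold, 116 took the opposite sign, 20 no longer passed and 12 newly passed. Part of the 1212 could not change direction. Leaving out an animal of neither compared group, changing the filter or fitting only the compared groups returns the same estimate. The tally therefore does not measure how stable the estimates are.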
